A study of Mus musculus with 2 samples.

Results

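The genes described here are 44 genes of mitosis and of the kinetochore, chosen by a list of symbols, and 43 of them were measured among the 21225 genes of the deposited table. Ccnb1, the gene of cyclin B1, had no row under its symbol and was not analysed here. The study compared right atria of Shox2-/- and wildtype mouse embryos at E11.5 by microarray. Each genotype was represented by 1 array, which carried the combined RNA of 6 embryos out of 2 litters. The authors had crossed their mice into the outbred line CD-1, and the strain of each pool is not given further. The dissected tissue held the sinus venosus myocardium and venous valves in which Shox2 is active. Shox2-/- embryos carry no intact copy of this homeodomain transcription factor gene in any tissue, and no other allele or treatment is given for either pool. The values are log2 expression levels after quantile normalization by the authors, and each difference given is Shox2-/- minus wildtype. Neither genotype was measured again on a further array. The spread between embryos or pools is therefore unknown, no difference carries an error or a p-value, and precision is limited by having so few arrays.

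A dividing cell enters mitosis when the kinase Cdk1 is switched on by cyclins A and B. Microtubules of the spindle then attach to kinetochores, the protein assemblies that form on the centromere of each chromosome. The spindle checkpoint holds the cell in this state until all kinetochores are attached, after which the anaphase promoting complex marks cyclin B and securin for destruction. Most of these genes are transcribed mainly in G2 and M phase, so that their RNA in a tissue reflects the share of cells in division as well as the amount per cell. In a pool of bulk tissue, fewer dividing cells and less RNA per cell cannot be told apart. In the embryonic heart at this stage, muscle cells, endocardium, mesenchyme and epicardium all divide, and so do the young red blood cells that circulate through it.

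Many promoters of G2 and M phase genes carry a cell cycle genes homology region (CHR), with the letters TTTGAA or TTCGAA, which is bound by the MuvB complexes, and CCAAT boxes, which are bound by NF-Y. Of the 43 measured genes, 37 had a promoter window in the RefSeq table of GRCm38.p6, reaching from 250 bases before to 50 bases after an annotated start. Ccna2, Cdc25c, Aurkb, Incenp, Kif20a and Tpx2 are named only. The stretches shown here are those of the 4 genes with the lowest differences whose window held a CHR-type match. They run from 150 bases before the start to 30 bases after it, at chr9:122950931-122951110 on the plus strand for Kif15, chr9:83834539-83834718 on the plus strand for Ttk, chr7:135716350-135716529 on the minus strand for Mki67 and chr2:69206184-69206363 on the minus strand for Spc25. Capitals mark TTTGAA or TTCGAA and CCAAT, on either strand (TTCAAA and ATTGG when read backwards).
Kif15: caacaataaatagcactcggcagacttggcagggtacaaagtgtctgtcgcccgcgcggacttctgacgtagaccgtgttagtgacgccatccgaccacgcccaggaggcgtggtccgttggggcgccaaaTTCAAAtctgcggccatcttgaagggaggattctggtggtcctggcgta
Ttk: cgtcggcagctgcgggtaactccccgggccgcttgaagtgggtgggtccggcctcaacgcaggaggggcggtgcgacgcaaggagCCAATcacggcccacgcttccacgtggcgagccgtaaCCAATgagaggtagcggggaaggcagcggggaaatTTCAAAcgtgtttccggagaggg
Mki67: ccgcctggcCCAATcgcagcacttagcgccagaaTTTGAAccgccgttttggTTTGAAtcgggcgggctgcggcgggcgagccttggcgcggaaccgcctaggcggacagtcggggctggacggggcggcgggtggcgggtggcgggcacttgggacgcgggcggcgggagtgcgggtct
Spc25: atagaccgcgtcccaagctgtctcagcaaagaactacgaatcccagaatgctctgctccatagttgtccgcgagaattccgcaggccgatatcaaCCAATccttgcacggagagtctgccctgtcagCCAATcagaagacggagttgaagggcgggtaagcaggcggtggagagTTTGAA

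A CHR-type match on either strand was found in the windows of 28 of the 37 genes (75.7%), against 2996 of 15651 genes (19.1%) that were measured, named and present in the RefSeq table, and 21.7% of all 27025 genes of that table. TTTGAA alone was found in 27 of the 37 genes, TTCGAA in 3, which were Bub1, Bub1b and Top2a. CCAAT, which can share no more than an end base with the CHR, was found in 27 of the 37 (73.0%) and in 41.9% of the measured genes. A high share of CCAAT was not particular to the mitosis genes. It was found in 17 of 26 replication and G1/S genes (65.4%) and in 8 of 10 Cdk inhibitors and p53 targets (80.0%). The lowest share among the further lists described below was 46%. GGCGGGAA, an E2F-type sequence of genes of the G1/S transition, was found in 1 of the 37 (2.70%), Cenpn, against 3.46% of the measured genes and 2.52% of all genes of the table. The first base of a CHR-type match lay at a median of −12 from the annotated start in these genes, with 28 of 40 matches (70.0%) at −50 or later. Over measured genes, 23.3% of 3658 matches lay there. Matches were counted per window, so that a match in overlapping windows of a gene, as in Bub3 and Prc1, entered once for each window. In the stretches shown, the match began at −19 in Kif15, 7 bases after the start in Ttk and 24 bases after it in Spc25, and Mki67 had a pair at −116 and −98. Plk4, Nek2, Birc5, Cenpe, Cenpi, Cenpk, Nuf2, Mad2l1 and Kif18a had neither TTTGAA nor TTCGAA in the windows used, and Nek2, Cenpe, Cenpi and Cenpk of these had CCAAT. The median difference was −0.22 for the 28 genes with a CHR-type match and −0.23 for the 9 without one, with ranges of −0.42 to −0.05 and −0.43 to −0.11 that overlap. A match of letters is a description of the window and does not show binding.

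**Figure D1:**
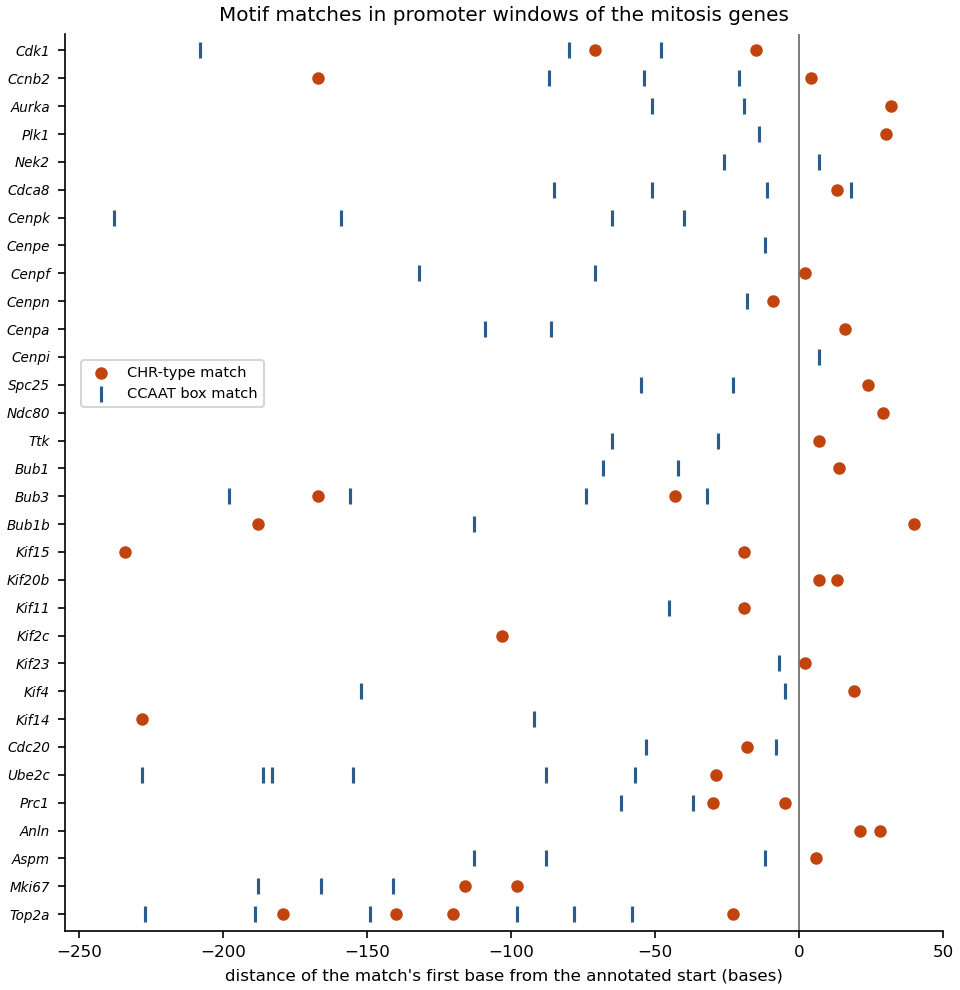
Matches to TTTGAA or TTCGAA (CHR-type, dots) and CCAAT (bars) in the promoter windows of the 32 genes with at least 1 of them, by distance of the first base from the annotated start (x axis, bases); genes are ordered by role and several windows of a gene share a line. CHR-type matches crowd around the start, with 28 of 40 at −50 or later, and CCAAT matches lie mostly before it.

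All 43 genes lay above the level of olfactory and vomeronasal receptor genes on both arrays, a level taken as a mark of background (the 95th percentile of 1294 such genes, 6.97 on the Shox2-/- array and 6.77 on the wildtype array). All 43 were lower on the Shox2-/- array, where 45.1% of all genes were lower. The median difference was −0.23, against 0.02 over all genes, which left 85.5% of the wildtype signal. The differences ran from −0.43 to −0.05, and 32 of the 43 lay between −0.3 and −0.1. At or below −0.2, a limit set with earlier results of these data known, were 24 of the 43 genes, against 11.8% of all genes. None was at or above 0.2, where 11.2% of all genes were. At or below −0.4 were 4 of the 43, against 1.78% of all genes. None was at or above 0.35, where 1.13% of all genes were.

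Over all genes the difference depended on the level, with a median of 0.12 in the third of 10 level bins and of −0.09 in the ninth. The mitosis genes were nearly all in the upper bins, 40 of 43 in the highest 3. All 40 of these were below 0, against 71.6% of all genes of those bins. Of the 40, 23 were at or below −0.2, against 22.0%, and 4 at or below −0.4, against 3.36%. Their median difference was −0.23, and that of all genes in the same bins was −0.08. After removal of the level-dependent trend, which was between −0.09 and 0.06 at these genes, the median of the 43 was −0.15. Then 40 of 43 were below 0, against 49.4% of all genes, 9 were at or below −0.2, against 9.8%, and none was at or below −0.4. The 3 genes no longer below 0 were Aspm (0.04), Aurkb (0.03) and Ube2c (0.01). Among the 43 genes, Spearman's rho of level and difference was 0.16, with all points from the same pair of arrays.

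**Figure D2:**
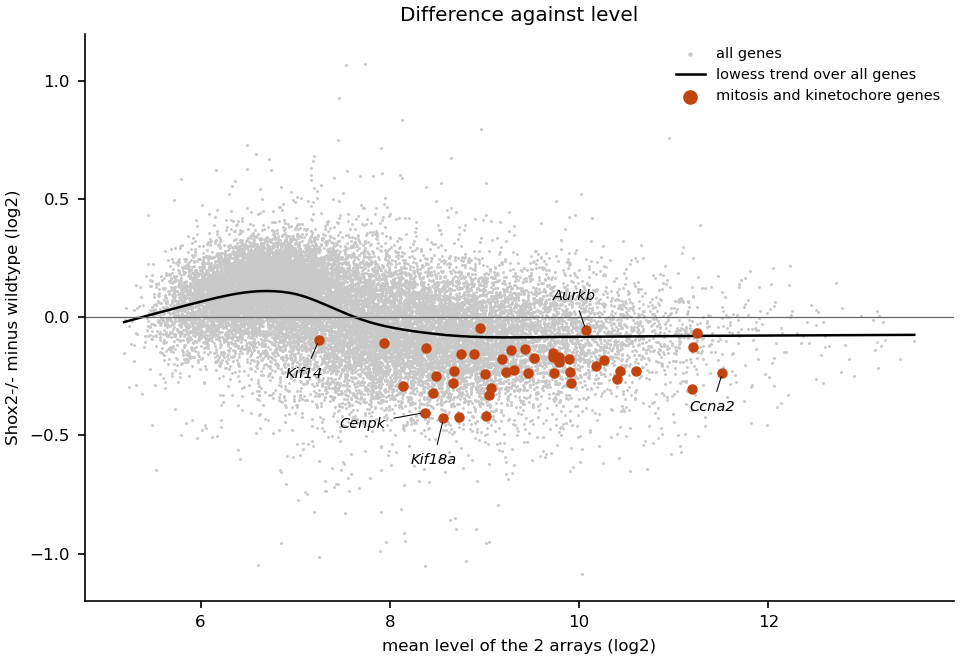
Difference (Shox2-/- minus wildtype, log2, y axis) against the mean level of both arrays (log2, x axis) for all 21225 genes (grey), with the mitosis and kinetochore genes in orange and the lowess trend over all genes as a line; 9 genes lie outside the y axis. All 43 orange points are below 0, and 40 are below the trend line.

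The genes that drive the entry into mitosis were lower by 0.13 to 0.25. Cdk1, the kinase itself, had a level of 10.08 on the Shox2-/- array and 10.29 on the wildtype array, a difference of −0.21. Ccna2 (cyclin A2) stood at 11.40 in Shox2-/- and 11.63 in wildtype, a difference of −0.24. Ccnb2 (cyclin B2) stood at 11.14 in Shox2-/- and 11.26 in wildtype, a difference of −0.13. Cdc25c, the phosphatase that removes inhibitory phosphates from Cdk1, stood at 8.36 in Shox2-/- and 8.61 in wildtype, a difference of −0.25. No gene of this role reached −0.4, and after removal of the trend they lay between −0.18 and −0.05. The mitotic kinases had differences in the same range, with −0.22 for Plk4, which starts centriole duplication, −0.19 for Aurka of the spindle poles, −0.18 for Plk1, and −0.13 for Nek2, which separates centrosomes. Plk1 had 10.17 in Shox2-/- and 10.35 in wildtype, and Plk4 had 9.20 in Shox2-/- and 9.42 in wildtype.

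The subunits of the chromosomal passenger complex, which corrects faulty attachments of microtubules, spanned differences of −0.28 to −0.05. Incenp, the scaffold, stood at 8.53 in Shox2-/- and 8.80 in wildtype, a difference of −0.28. Cdca8 (borealin) stood at 9.34 in Shox2-/- and 9.58 in wildtype, a difference of −0.24. Birc5 (survivin) had a difference of −0.14. Aurkb, the kinase of the complex, was nearly level, with 10.04 in Shox2-/- and 10.10 in wildtype, a difference of −0.05. The kinase and its scaffold thus stood at opposite ends of the values of this complex.

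Centromere proteins and the outer kinetochore held some of the lowest differences. Cenpk, of the network that sits on the centromere throughout the cell cycle, stood at 8.17 in Shox2-/- and 8.57 in wildtype, a difference of −0.40, or 75.6% of the wildtype signal. Its neighbours in that network, Cenpn and Cenpi, had −0.24 and −0.11. Cenpe, a kinesin of the kinetochore, stood at 8.88 in Shox2-/- and 9.21 in wildtype, a difference of −0.33. Cenpf had −0.24, and Cenpa, the histone H3 variant that marks the centromere, had −0.23, with 10.32 in Shox2-/- and 10.54 in wildtype. In the Ndc80 complex, which holds the end of the microtubule, the 3 subunits in this gene list were at or below −0.2. Spc24, the remaining subunit, is counted with the further kinetochore genes below and was at −0.15, or −0.10 with the trend removed. Nuf2 stood at 8.52 in Shox2-/- and 8.94 in wildtype, a difference of −0.42. Spc25 stood at 8.92 in Shox2-/- and 9.21 in wildtype, a difference of −0.30. Ndc80 itself stood at 8.56 in Shox2-/- and 8.79 in wildtype, a difference of −0.23. Nuf2 and Ndc80 are known to bind each other as a dimer. With the trend removed, Nuf2 and Cenpk were both at −0.34.

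The spindle checkpoint genes lay between −0.32 and −0.13. Ttk, the kinase at the top of this checkpoint, stood at 8.29 in Shox2-/- and 8.61 in wildtype, a difference of −0.32. Bub1, a checkpoint kinase, and Mad2l1, which is part of the inhibitor of Cdc20, were each at −0.23. Mad2l1 had 10.48 in Shox2-/- and 10.71 in wildtype. Bub3, a protein that brings Bub1 to the kinetochore, was at −0.18, and Bub1b, another part of the inhibitor, was at −0.13. Of the 5 genes, Ttk alone remained at or below −0.2 with the trend removed.

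The 9 mitotic kinesins, motor proteins that move along microtubules, spanned differences of −0.43 to −0.10. Kif18a, which damps the movements of chromosomes on the metaphase plate, had the lowest difference of all, with 8.35 in Shox2-/- and 8.78 in wildtype. This is a difference of −0.43, or 74.3% of the wildtype signal, and rank 310 from the lowest of 21225 genes. Kif15 stood at 8.81 in Shox2-/- and 9.23 in wildtype, a difference of −0.42. Kif11, which pushes the spindle poles apart and shares this work with Kif15, stood at 9.77 in Shox2-/- and 10.05 in wildtype, a difference of −0.28. Kif20b had −0.29 and Kif2c, which takes microtubules apart at their ends, −0.23. Kif23 and Kif20a, which act in cytokinesis as Kif20b does, were at −0.17 and −0.15, and Kif14 was at −0.10. Kif14 stood at 7.20 in Shox2-/- and 7.30 in wildtype, in a range where genes as a whole were higher in Shox2-/-, and with the trend removed it was at −0.16. Kif4, a kinesin of chromosome arms, was at −0.16. Kif4 and Cenpi are the X-linked genes among the 43, and without them the median was still −0.23.

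Both genes of the anaphase promoting complex and the 4 spindle and cytokinesis proteins lay above −0.2. Ube2c, the ubiquitin-conjugating enzyme of the anaphase promoting complex, stood at 11.22 in Shox2-/- and 11.28 in wildtype, a difference of −0.07. Cdc20, the activator of that complex, was at −0.16. Among the spindle and cytokinesis proteins, Prc1, which bundles the midzone of the spindle, was at −0.18, Tpx2, which activates Aurka, at −0.17, and Anln (anillin), a protein of the cleavage furrow, at −0.17. Aspm, a spindle pole protein, had 8.93 in Shox2-/- and 8.98 in wildtype, and its difference of −0.05 was the smallest of the 43. The proteins of mitotic chromosomes had lower differences. Mki67, the source of the Ki-67 antigen used to stain cycling cells, stood at 11.04 in Shox2-/- and 11.34 in wildtype, a difference of −0.30. Top2a, which untangles sister chromatids, stood at 10.27 in Shox2-/- and 10.53 in wildtype, a difference of −0.26. By role, the medians ran from −0.30 in the Ndc80 complex, taken without Spc24 (−0.15), to −0.11 in the pair of anaphase promoting complex genes. Roles of 2 to 9 genes on 1 pair of arrays do not allow an order to be tested.

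**Figure D3:**
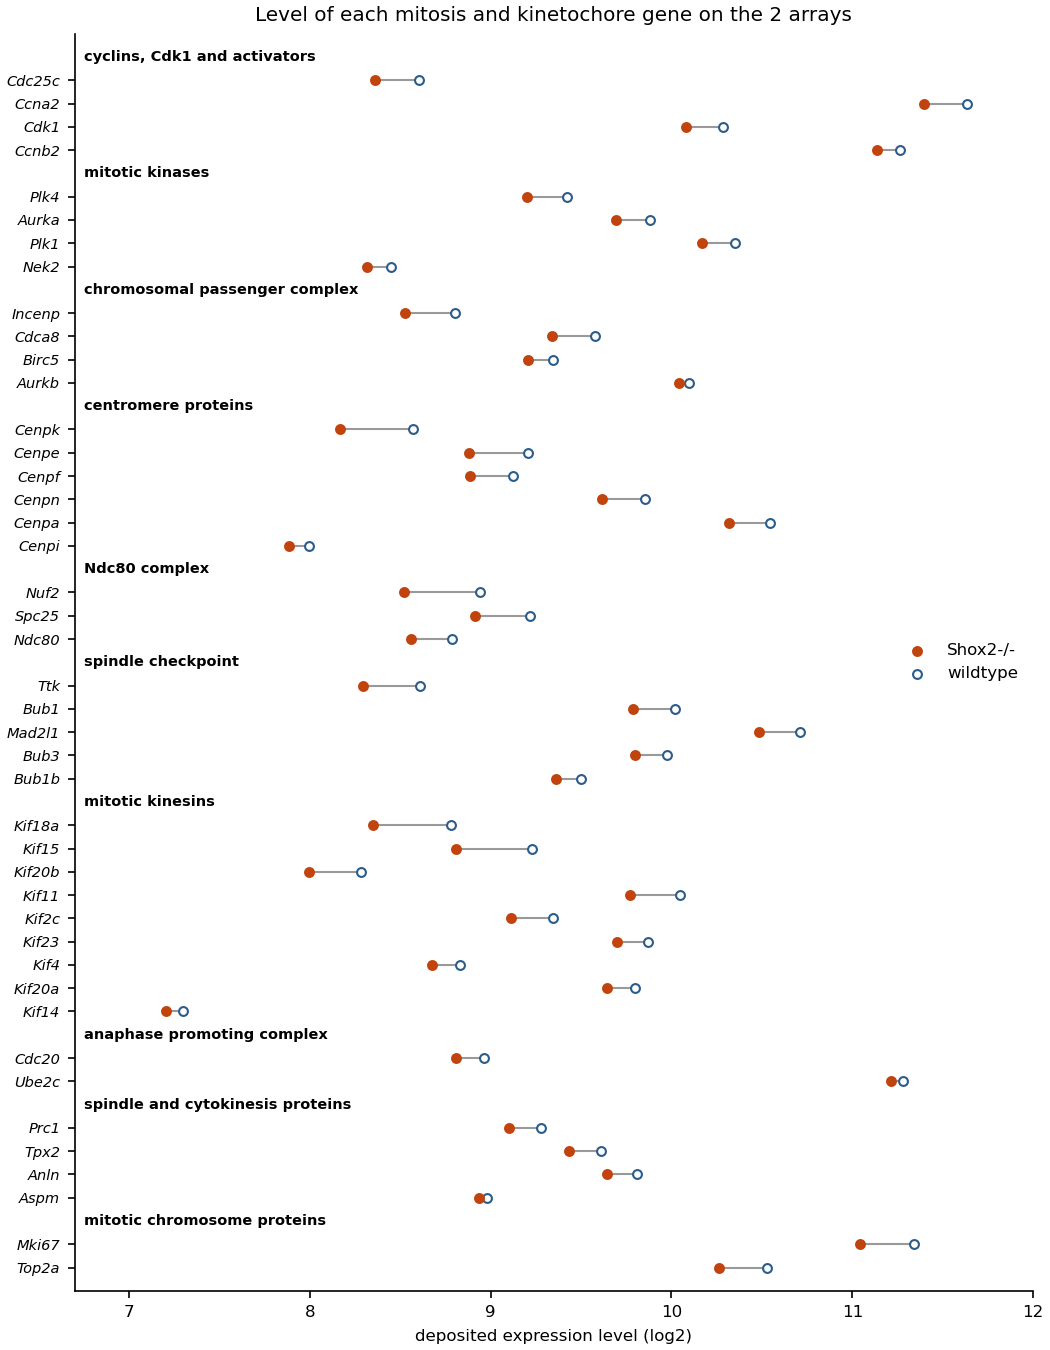
Level of each of the 43 measured genes (log2, x axis) on the Shox2-/- array (filled) and the wildtype array (open), grouped by role and ordered within a role from the lowest difference. In all 43 genes the Shox2-/- value lies left of the wildtype value, with the widest gaps in Kif18a, Nuf2, Kif15 and Cenpk.

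Further genes of the same process were taken from 5 more lists. Of 100 listed genes, 95 were measured, 87 of these were below 0 and 46 at or below −0.2, with a median of −0.20. Of all genes, 45.1% were below 0 and 11.8% at or below −0.2. Among genes of the highest 3 level bins these shares were 71.6% and 22.0%. At or below −0.4 were 7 of the 95, each named here, against 1.78% of all genes. Among 27 other kinetochore genes the median was −0.25, with 24 below 0 and 15 at or below −0.2. Knl1, which joins the Ndc80 complex to the checkpoint kinases, stood at 9.60 in Shox2-/- and 10.06 in wildtype, a difference of −0.47. Cenph, a partner of Cenpk and Cenpi, was at −0.46, and Sgo1 (shugoshin), which guards centromeric cohesin, at −0.43. The kinetochore genes Mis12 (0.06), Ska2 (0.04) and Mad1l1 (0.01) were not below 0. Of 19 other spindle and cytokinesis genes, 18 were below 0, with a median of −0.20. Their lowest were Hmmr, a spindle protein, with 8.65 in Shox2-/- and 9.16 in wildtype and a difference of −0.51, and Nusap1 at −0.42, and their highest was Fam83d at 0.07.
All 17 condensin, cohesin and separase genes were below 0, with a median of −0.26. Esco2, which acetylates cohesin in S phase, was at −0.42 and the condensin subunit Smc4 at −0.39, while the cohesin subunit Stag1 and the condensin subunit Ncaph2 were each at −0.04. The 14 subunits and partners of the anaphase promoting complex had a median of −0.10 with 3 at or below −0.2, near the median of −0.08 of all genes in the highest 3 level bins. The lowest of them was the inhibitor Fbxo5 (−0.30) and the highest the subunit Anapc2 (0.05), and with the trend removed the median was −0.03 with 8 of 14 below 0. Among 18 G2/M regulators the median was −0.17. Cdkn3, a phosphatase that acts on Cdks, was at −0.47 and Cdc25b at −0.37, and Foxm1, a transcription factor of G2/M genes, stood at 9.29 in Shox2-/- and 9.47 in wildtype, a difference of −0.18. Pkmyt1, a kinase that restrains Cdk1, was at 0.15 and Lin37 of the MuvB complex at 0.10. With the trend removed, 73 of the 95 genes were below 0, against 49.4% of all genes, and 35 at or below −0.2, against 9.8%.

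The genes of DNA replication and the G1/S transition act one phase earlier. Of 33 measured, 30 were below 0, 12 at or below −0.2 and none at or below −0.4, with a median of −0.15. The shares of all genes were 45.1%, 11.8% and 1.78%, and those of genes in the highest 3 level bins 71.6%, 22.0% and 3.36%. Removal of the trend brought the median of the 33 genes to −0.08. The mitosis genes had −0.23 before and −0.15 after that removal, and the difference between both lists was not tested, since the arrays have no replicates. Prim1, a primase subunit, was at −0.37 and Rfc3 of the clamp loader at −0.36, while Mcm2 of the replicative helicase was at −0.06 and Rfc5 and Cdc6 were each at 0.04. CHR-type matches were found in 6 of 26 replication genes with a window (23.1%), in 13 of 18 of the other spindle and cytokinesis genes (72.2%) and in 9 of 23 of the other kinetochore genes (39.1%).

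Markers of some other cell types were also lower on the Shox2-/- array, and those of others were not. Of 21 listed erythroid markers 17 were measured, and all 17 were lower, 12 of them at or below −0.4, with a median of −0.47. Among all genes 45.1% were lower and 1.78% at or below −0.4. After removal of the trend 7 of the 17 were at or below −0.4, and all 17 were still below 0. Their summed signal on the Shox2-/- array was 79.1% of that on the wildtype array, and that of the 43 mitosis genes was 86.6%. The erythroid transcription factor Gata1 stood at 8.90 in Shox2-/- and 9.59 in wildtype, and Tfrc, the transferrin receptor, at 9.46 in Shox2-/- and 9.93 in wildtype. All 12 fetal liver markers were lower as well, with a median of −0.93 and a summed signal of 46.5%, and 8 of them were above the receptor level on the Shox2-/- array, against 12 on the wildtype array. The foregut and lung epithelium markers had a median of −0.33, with 7 of 9 lower. The part of blood, liver and foregut cells in the lower signal of the mitosis genes was not tested.
In contrast, none of 8 cardiac muscle markers was lower, with a median of 0.15 and a summed signal of 106%. The medians were 0.04 for 8 atrial, 0.02 for 7 endocardial and endothelial, 0.12 for 7 epicardial and 0.25 for 9 cushion and valve markers. These 9 went both ways. At or above 0.35 were 3 of them, against 1.13% of all genes, while 3 were below 0. At or below −0.2 were 2 of the 9, against 11.8% of all genes. Of 6 macrophage and white cell markers 4 were below 0 and none was at or below −0.2, against 11.8% of all genes. Above the receptor level were 3 of the 6 on the Shox2-/- array and 5 on the wildtype array. The 5 ventricular markers had a median of 0.25 with 1 lower, and the 6 sinus venosus markers, Shox2 among them, a median of −0.16 with 3 lower. That median lies between separate groups. All 3 lower ones, with Shox2 and Isl1 (−0.42) among them, were at or below −0.2. The others, with Hcn4 (0.07) and Tbx18 (0.17) among them, were above 0. The defining atrial genes Nppa (10.93 in Shox2-/- and 11.05 in wildtype) and Myl7 (12.80 in Shox2-/- and 12.75 in wildtype) were present on both arrays. Myl2, the 1 lower gene of the ventricular list, stood at 8.07 in Shox2-/- and 8.76 in wildtype. Myh7 of the same list stood at 9.24 in Shox2-/- and 8.92 in wildtype. Shox2, the targeted gene, stood at 7.48 in Shox2-/- and 8.43 in wildtype, a difference of −0.95. Whether its probes fall in the deleted stretch was not examined. Over all genes the median level was 7.50 on both arrays.

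**Figure D4:**
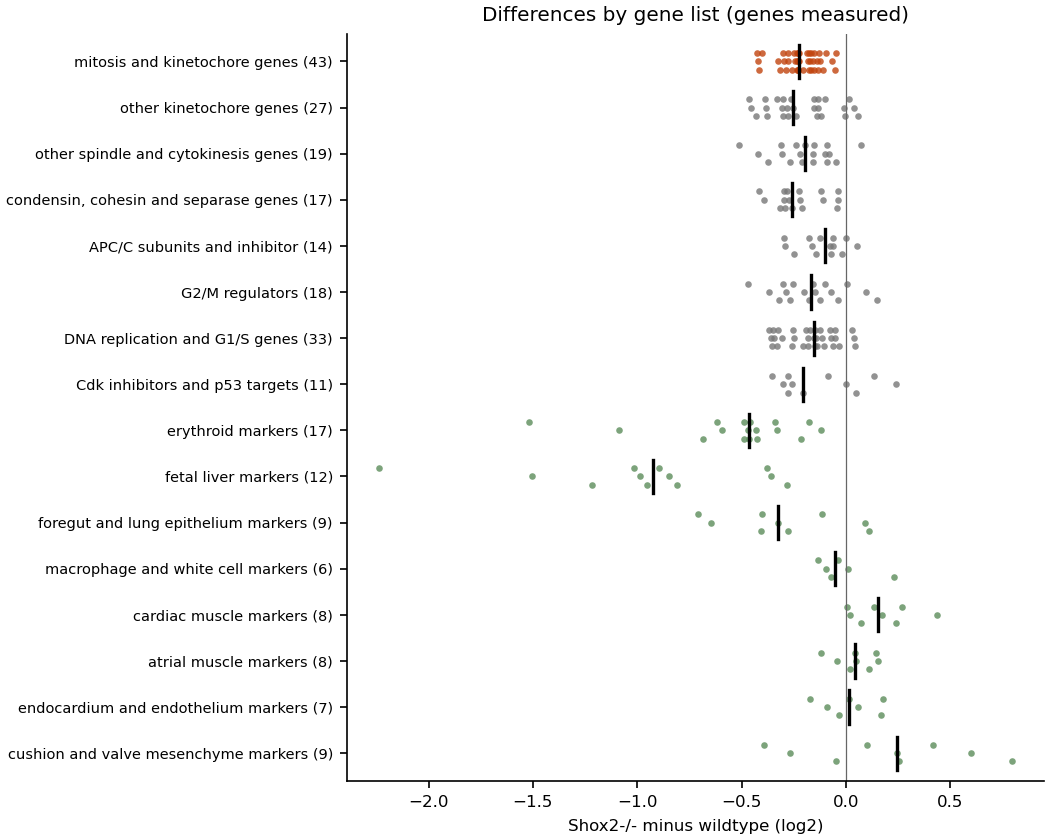
Difference of each measured gene (Shox2-/- minus wildtype, log2, x axis) in the mitosis and kinetochore genes (orange), further cell cycle lists (grey) and cell type markers (green), with the number of genes in brackets and the median as a black bar. The mitosis genes lie between −0.43 and −0.05, the erythroid and liver markers reach lower, and the cardiac muscle markers lie at or above 0.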

How the data were processed

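The authors hybridized 1 GeneChip Mouse Gene 1.0 ST array per genotype and summarized its probe signals per gene in JMP Genomics 4.0. Only perfect-match probes entered, and the arrays were brought to 1 distribution by quantile normalization on the log scale before the log-linear fit. They used a custom CDF of version 14 with Entrez gene definitions. The deposited table holds 1 log2 value per gene and array. Base 2 was inferred from the range of 5.09 to 13.59. For background correction and genome build the sources used here give nothing, and scanner files were not used here.

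Symbols came from the platform annotation and were checked through Entrez identifiers against RefSeq (GRCm38.p6). Of 21225 genes 20239 had a symbol, none needed an update, and 986 were counted but not named. Members, lists, size limits, motifs and the naming rule were chosen with earlier results of these data known. All measured members were named. Of each pathway list up to 2 of the lowest and 2 of the highest genes and those past −0.4 or 0.35 were named, and of a marker list up to 4 defining genes. Foxm1, Mcm2, Mad1l1 and Spc24 fall outside this rule and were picked with their values in view.

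The trend was a lowess fit of difference on mean level (span 0.3, 3 iterations), tested on simulated data. Alternatives were aligned array medians, trend removal, restriction to genes above the receptor or the median level, other size limits and exclusion of X-linked genes. Without replicates no test was made. The software was statsmodels 0.14.6 for the trend, pandas 2.3.3 and numpy 2.4.6 for tables, and matplotlib 3.10.9 for figures, under Python 3.11.15.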

Additional observations from a re-analysis of the deposited data

How the results depend on the processing

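Removal of the level-dependent trend between the arrays was the setting that changed most. It brought the median difference of the mitosis genes to −0.15, the number at or below −0.2 to 9, the number at or below −0.4 to 0, and the median of the replication genes to −0.080. The differences of 29 of the 43 single genes moved by over 1.5 times, and 40 stayed below 0. At a 2-fold limit 0 genes were lower. Aligned array medians, dropping genes under the receptor level and dropping those under the median level kept both medians and the counts of mitosis genes within 1.5 times. Exclusion of X-linked genes, run for the median and the number at or below −0.2, did so too. Restriction to the 3 highest level bins was chosen after seeing the data, and the median of the mitosis genes was then −0.23. No paired analysis was possible because each genotype has a single array, which also means that leaving out a replicate could not be tried. The number of arrays and the unknown spread between pools limit what these small differences can show.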

Other observations

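A further list held Cdk inhibitors, which hold back the cell cycle, and p53 targets. Of its 11 measured genes 7 were below 0, against 45.1% of all genes and 71.6% of those in the highest 3 level bins. At or below −0.2 were 6, against 11.8% of all genes and 22.0% of those in the highest 3 level bins. Those bins begin at a mean level of 8.35, and genes such as Cdkn2b, Cdkn2c and Cdkn1a lie below it. The shares of those bins are therefore not matched to the levels of this list. With the trend removed 2 were at or below −0.2, against 9.8% of all genes, and 9 of the 11 were below 0, against 49.4%. The median was −0.21, or −0.14 with the trend removed, close to the −0.23 and −0.15 of the mitosis genes. Cdkn2c, an inhibitor of the kinases of G1, stood at 7.75 on the Shox2-/- array and 8.10 on the wildtype array, a difference of −0.36, and Cdkn1a (p21) at 7.74 in Shox2-/- and 8.04 in wildtype, a difference of −0.30. The highest differences of this list were those of Cdkn2b (0.24) and Cdkn1c (0.13). Cdkn2b stood at 7.36 in Shox2-/- and 7.12 in wildtype, in the level range where genes as a whole were higher in Shox2-/-, and was at 0.17 with the trend removed.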
